A study of Mus musculus with 77 samples.

Results

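The 40 genes examined mark T cells, natural killer (NK) cells, B cells and plasma cells, and were taken from the 55487 genes of the liver count table by their symbols. They fall into 9 genes of the T cell receptor and its co-receptors, 8 of T cell adhesion, co-stimulation and proximal signalling, 8 of cytotoxic granules and NK receptors, 6 checkpoint and regulatory T cell genes, 5 B cell genes and 4 plasma cell and immunoglobulin genes. Liver RNA came from 77 male C57BL/6JRj mice in 10 groups, with 1 library per mouse. Mice with diet-induced obesity and metabolic dysfunction-associated steatohepatitis (DIO-MASH mice) started at 5 to 6 weeks of age on a diet rich in fat, fructose and cholesterol, stayed on it for 34 weeks, had a liver biopsy 4 weeks before treatment and were included on their biopsy scores. They then received semaglutide at 123 µg/kg on the same diet for 8, 16 or 24 weeks (7, 8 and 8 mice), a change of diet to chow with vehicle for the same times (chow reversal, 7, 8 and 8 mice), or vehicle on the MASH diet (9, 8 and 7 mice). A further 7 mice never left chow and received vehicle for 24 weeks (chow). Every mouse was injected under the skin once daily with semaglutide or vehicle. For the DIO-MASH mice, the paper's reporting summary gives an age at treatment start that implies fewer than 34 weeks on the diet beforehand. All DIO-MASH groups, vehicle included, shared the biopsy and the selection on it, which limits them as a model to livers with established disease.

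T cells recognize peptides through a receptor of alpha and beta chains that signals through the CD3 subunits, and CD8 or CD4 assigns them to class I or class II antigen presentation. Cytotoxic T cells and NK cells kill through perforin and granzymes. B cells signal through surface immunoglobulin held by CD79A and CD79B, and plasma cells secrete it. In fatty liver disease these cells are a minority beside macrophages and hepatocytes, and CD8 T cells carrying PD-1 have been described in steatohepatitis. In RNA from whole liver, fewer cells of a type and less RNA per cell cannot be told apart.

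Library totals ran between 8883150 and 37631072 counts (median 16406937), and levels are given as CPM, counts scaled to a common library size after normalization between libraries. At that depth 36 of the 40 genes passed the filter on low counts, and Ncr1, Ctla4, Foxp3 and Tigit did not. Only 13 members had a median above the filter's 0.609 CPM in chow-fed mice, so many members entered the test through the groups in which they were higher. The liver label held: the summed level of 10 hepatocyte markers was 71774 to 124100 CPM (median 94911) after 24 weeks of semaglutide and 48715 to 65680 CPM (median 54454) with vehicle. Some libraries stood apart. The 3 semaglutide libraries of a second number series (2 at 16 weeks, replicates 7 and 8, and 1 at 24 weeks, replicate 8) had 3.34 to 4.11% of counts in predicted genes, against 1.07 to 2.74% in the other 74. A vehicle library at 8 weeks had a number outside the repeating order of groups and lay nearest to its own group's centroid. Replicate 7 of chow reversal at 24 weeks lay nearest to a vehicle centroid, the exception among 77 libraries, of which 76 lay nearest to a group on their own present diet (MASH diet or chow). Only 35 lay nearest to the centroid of their own group, so this check speaks to diet and not to treatment or time.

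After 24 weeks, 1 of the 27 tested T and NK genes was higher and 0 were lower with semaglutide than with vehicle, whereas 1 was higher and 18 were lower with chow reversal. With semaglutide, Zap70 was higher and Cd22 lower than with vehicle, 1 and 1 of the 40 genes, where 10.8% of all 14904 genes tested were higher and 13.6% lower (edgeR quasi-likelihood test, adjusted p under 0.05). With chow reversal, 1 member was higher and 19 were lower than with vehicle, where 17% of all genes were higher and 19.1% lower. The median log2 fold change over the 36 tested members was -0.12 for semaglutide and -1.04 for chow reversal, beside -0.010 and 0.044 over all genes tested. Both comparisons use the same vehicle mice. The filter was applied over all 10 groups and many members passed it through groups in which they were higher. The medians therefore describe the tested members only. The direct comparison found 15 members higher and 0 lower with semaglutide than with chow reversal at 24 weeks, against 7.77% of all genes higher and 8.72% lower, with 22 members at an unadjusted p under the threshold. The map of fold changes over vehicle, chow reversal and chow shows these calls by gene.

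The number of members called in that direct comparison depended on single libraries and on the filter. It was 8 without chow reversal replicate 1 and 8 without replicate 8, 7 without a filter on low counts, when 32065 genes entered the adjustment, and 5 when only the compared groups were fitted, when 6 of the 15 did not pass the filter. In the comparison of chow reversal with vehicle, 13 members in all were called when only the compared groups were fitted, in which 6 of the 20 did not pass the filter.

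**Figure D1:**
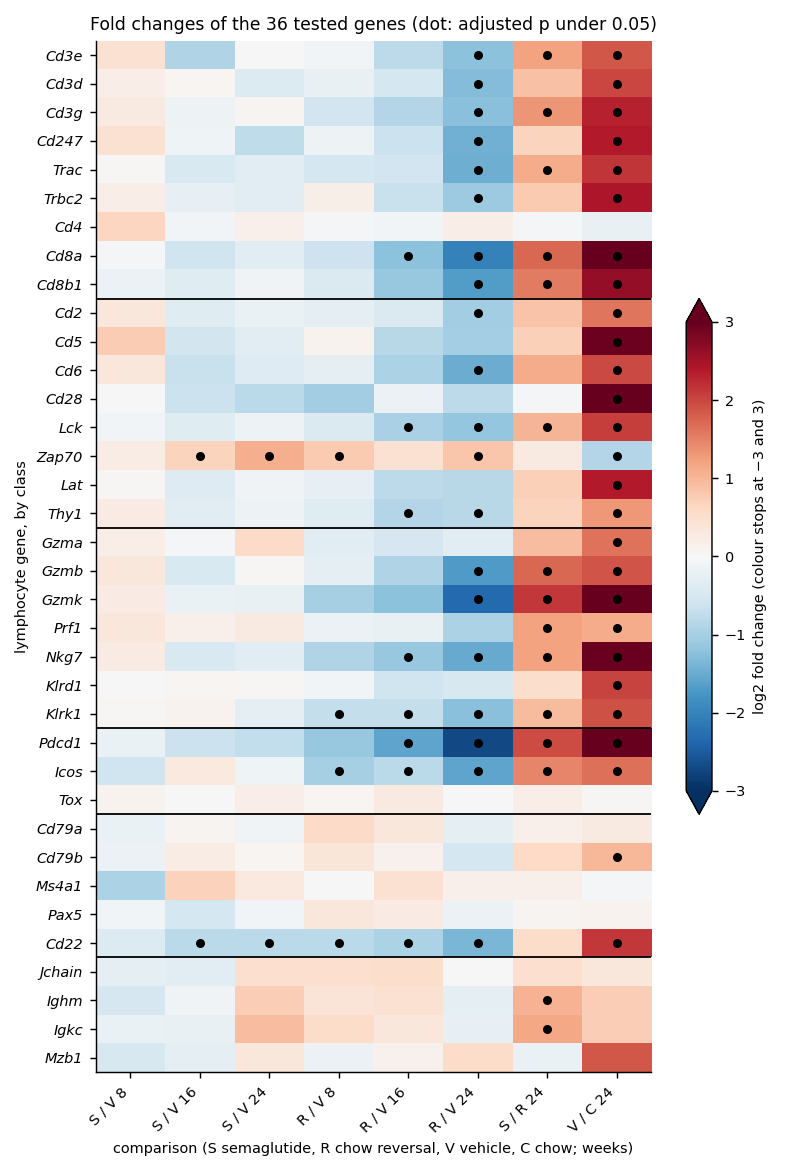
Log2 fold changes of the 36 tested lymphocyte genes (rows, by class) in each comparison (columns), with a dot where the adjusted p was under 0.05. At 24 weeks the column of semaglutide over vehicle holds 2 dots and that of chow reversal over vehicle 20.

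At earlier times fewer members were called. At 8 weeks 0 members were called with semaglutide over vehicle by edgeR and 0 by DESeq2, with 1 at an unadjusted p under 0.05, where 2.24% of all genes were higher and 3.51% lower. At 16 weeks Zap70 was higher and Cd22 lower with semaglutide, with 6.44% of all genes higher and 5.8% lower. Chow reversal had 1 member higher and 3 lower than vehicle at 8 weeks, where 14.2% of genes were higher and 17.9% lower, and 0 higher and 8 lower at 16 weeks, where 12.1% were higher and 16.2% lower. The members' median log2 fold change for semaglutide over vehicle was 0.038, -0.26 and -0.12 at 8, 16 and 24 weeks, and for chow reversal over vehicle it was -0.23, -0.63 and -1.04. The filter limits these medians in the same way. Scaled to library totals, the 16-week semaglutide calls were 0 higher and 2 lower (Cd22 and Cd3e) in place of 1 and 1, and those of chow reversal 0 higher and 17 lower in place of 0 and 8. Without vehicle replicate 6, the 16-week counts were 0 members for semaglutide and 5 for chow reversal, and the semaglutide count was 1 without semaglutide replicate 4, 7 or 8 or vehicle replicate 1, 4 or 7.

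Klrk1 was higher with semaglutide than with chow reversal at 8 weeks, 1 member higher and 0 lower, where 3.52% of genes were higher and 2.64% lower. At 16 weeks Klrk1 and Icos were higher and 0 members lower, where 6.24% of genes were higher and 3.56% lower. The 8-week count was 0 without any of 10 single libraries, named with Klrk1, and the 16-week count was 1 without semaglutide replicate 8 and 4 without chow reversal replicate 7. The difference between the semaglutide effects at 24 and 8 weeks was tested directly, and edgeR and DESeq2 called 0 members (4 at an unadjusted p under 0.05), with 0.0604% of all genes called in either direction. In vehicle-dosed mice, 0 members differed between 24 and 8 weeks by edgeR or DESeq2 (3 at an unadjusted p under 0.05), with 0.731% of genes higher and 0.0604% lower at 24 weeks.

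Against chow-fed mice at 24 weeks, 29 members were higher and 0 lower with semaglutide (17.9% and 13.5% of all genes), 5 were higher and 0 lower after chow reversal (5.72% and 0.913%), and 26 were higher and 1 lower with vehicle on the MASH diet (25.8% and 21.9%). With only the compared groups fitted, when 15, 3 and 14 of the called members did not pass the filter, 13 were called with semaglutide, 1 with chow reversal and 13 with vehicle. These 3 comparisons share the chow-fed mice, and most tested members passed the filter through groups other than chow, so the counts describe the members and were not read further. The 5 genes higher after chow reversal than in chow were Trbc2 (log2 1.35), Cd8a (log2 1.80), Cd28 (log2 2.20), Lat (log2 1.55) and Klrd1 (log2 1.54). That number was 3 without chow replicate 3, 2 without chow reversal replicate 6 and 2 without chow reversal replicate 7, and 8 without chow replicate 6.

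Markers of other cell types moved in the same libraries. Of 15 macrophage and monocyte markers, 1 was higher and 10 were lower with semaglutide than with vehicle at 24 weeks, and 0 were higher and 13 lower with chow reversal. Their summed level was 449 to 1133 CPM (median 561) with semaglutide, 125 to 639.6 CPM (median 252) after chow reversal, 800.4 to 1308 CPM (median 932) with vehicle and 119 to 424 CPM (median 162) in chow-fed mice. Of 6 pan-leukocyte genes, 4 were lower with semaglutide and 6 with chow reversal, among them Ptprc, the CD45 phosphatase of all leukocytes, at log2 -1.06 (SE 0.25, adjusted p = 0.00112) for semaglutide and -1.63 (SE 0.26, adjusted p = 3.48e-07) for chow reversal. The summed level of the 6 was 83.0 to 191 CPM (median 123) with semaglutide, 30.1 to 137 CPM (median 54.5) after chow reversal, 179 to 257 CPM (median 219.7) with vehicle and 22.0 to 67 CPM (median 29) in chow-fed mice. The 10 hepatocyte markers moved the other way, 8 higher with semaglutide and 9 with chow reversal. For all genes the shares were 10.8% higher and 13.6% lower with semaglutide, and 17% and 19.1% with chow reversal. The part of these cell types in the lymphocyte results was not tested.

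Of the 9 T cell receptor, CD3 and co-receptor genes, 0 passed the test with semaglutide over vehicle at 24 weeks, and 8, all but Cd4, were lower with chow reversal. Beside these counts, 10.8% of all genes were higher and 13.6% lower with semaglutide, and 17% and 19.1% with chow reversal. Cd3e, which encodes a signalling subunit of the receptor complex, had 0.366 to 1.88 CPM (median 0.919) after 24 weeks of semaglutide, 0.163 to 0.883 CPM (median 0.409) after chow reversal, 0.598 to 2.01 CPM (median 0.880) with vehicle and 0.0702 to 0.569 CPM (median 0.239) in chow-fed mice. Replicate 4 held the highest vehicle value, and 7 of the 8 chow reversal mice were below every vehicle mouse, whereas semaglutide and vehicle mice overlapped. The Cd3e log2 fold change over vehicle was -0.013 (95% interval -0.76 to 0.73) with semaglutide and -1.22 (95% interval -2.01 to -0.43) with chow reversal, the second with an adjusted p of 0.0115. Cd3d and Cd3g, which encode its partner subunits, were at log2 -0.42 and 0.083 with semaglutide, where neither passed (adjusted p = 0.481 and 0.895), and at -1.30 and -1.25 with chow reversal (adjusted p = 0.0126 and 0.0104). Cd247, the zeta chain, was at -0.77 with semaglutide (adjusted p = 0.243) and -1.44 with chow reversal (adjusted p = 0.0204), but 3007 of its exon bases lie opposite Pou2f1, whose reads cannot be told from its own unless strand was counted, which is not given in the sources used here. The same holds for smaller overlaps of Cd3e (135 bases opposite Gm48719), Tox (260 opposite Gm11802) and Pax5 (636 opposite 5730488B01Rik).

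The constant regions of the receptor chains were among the highest members per length: in vehicle mice at 24 weeks Trbc2, a beta chain constant region, had 4.61 CPM per kb of exon and Trac, the alpha chain constant region, 1.96, beside 0.261 for Cd3e. Trac had 0.488 to 2.41 CPM (median 1.49) after 24 weeks of semaglutide, 0.0813 to 1.51 CPM (median 0.567) after chow reversal, 0.598 to 3.01 CPM (median 1.73) with vehicle and 0.103 to 0.752 CPM (median 0.491) in chow-fed mice. Trbc2 had 1.34 to 3.71 CPM (median 2.56) after 24 weeks of semaglutide, 0.785 to 2.33 CPM (median 1.38) after chow reversal, 0.956 to 6.11 CPM (median 3.11) with vehicle and 0.209 to 1.12 CPM (median 0.636) in chow-fed mice. For both genes semaglutide and vehicle mice overlapped over most of their range, and the chow-fed mice lay lowest by median. With semaglutide over vehicle Trac was at -0.35 (95% interval -1.09 to 0.38) and Trbc2 at -0.30 (95% interval -0.95 to 0.34). With chow reversal over vehicle, Trac was lower (log2 fold change -1.45, SE 0.39, adjusted p = 0.00218) and so was Trbc2 (log2 fold change -1.09, SE 0.33, adjusted p = 0.00755). Reads of Trbc2 may be shared with its close copy Trbc1, by a rule of the counting that is not given in the sources used here.

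Cd8a, the alpha chain of the CD8 co-receptor, had 0.873 to 4.36 CPM (median 2.05) after 24 weeks of semaglutide, 0.0813 to 1.2 CPM (median 0.626) after chow reversal, 1.49 to 4.39 CPM (median 2.40) with vehicle and 0.0702 to 0.526 CPM (median 0.149) in chow-fed mice. All 8 chow reversal mice were below every vehicle mouse, and all 8 semaglutide mice were above every chow-fed mouse. The fold change of semaglutide over vehicle was 0.809 (95% interval of the log2 value -1.05 to 0.44), and that of chow reversal over vehicle 0.247 (log2 fold change -2.02, SE 0.41, adjusted p = 4.87e-05). Set directly against chow reversal, Cd8a was higher with semaglutide (log2 fold change 1.71, SE 0.40, adjusted p = 0.00211). At 16 weeks it was lower with chow reversal than with vehicle (log2 fold change -1.23, SE 0.38, adjusted p = 0.00884), with 0.225 to 2.14 CPM (median 0.967) in chow reversal mice and 1.07 to 4.59 CPM (median 2.31) in vehicle mice. The medians were 1.34, 1.87 and 2.05 CPM after 8, 16 and 24 weeks of semaglutide, 1.24, 0.967 and 0.626 CPM after chow reversal, and 1.57, 2.31 and 2.40 CPM in vehicle-dosed mice.

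Cd8b1, the CD8 beta chain, was, at 24 weeks, lower with chow reversal than with vehicle (log2 -1.66, adjusted p = 0.0083) and higher with semaglutide than with chow reversal (log2 1.55, adjusted p = 0.0303). Cd4, the class II co-receptor, which some dendritic cells also carry, did not pass in either, at 0.16 (95% interval -0.64 to 0.95) with semaglutide and 0.21 (95% interval -0.58 to 0.99) with chow reversal. Semaglutide over chow reversal also called Cd3e (log2 1.21), Cd3g (log2 1.33) and Trac (log2 1.10). Some calls rested on single libraries. Over vehicle, the chow reversal call of Cd3e was lost without vehicle replicate 4 (adjusted p = 0.0549), that of Cd8b1 without vehicle replicate 4 (adjusted p = 0.0581) and that of Cd247 without chow reversal replicate 5 or vehicle replicate 4 (adjusted p 0.0508 to 0.0763). Over chow reversal, the semaglutide call of Cd3e was lost without semaglutide replicate 1 or 4 or chow reversal replicate 1 or 8 (adjusted p 0.0576 to 0.0689), that of Cd8b1 without semaglutide replicate 1 or chow reversal replicate 1, 5 or 8 (adjusted p 0.0599 to 0.0723) and that of Trac without semaglutide replicate 1, 2, 3, 4 or 6 or chow reversal replicate 1, 3, 4, 5 or 8 (adjusted p 0.0513 to 0.0918). In the same comparison the call of Cd3e was also lost with no filter (adjusted p = 0.0563), that of Cd8b1 with no filter (adjusted p = 0.0595) and that of Trac with no filter (adjusted p = 0.0799) and with only the compared groups fitted (adjusted p = 0.0846).

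**Figure D2:**
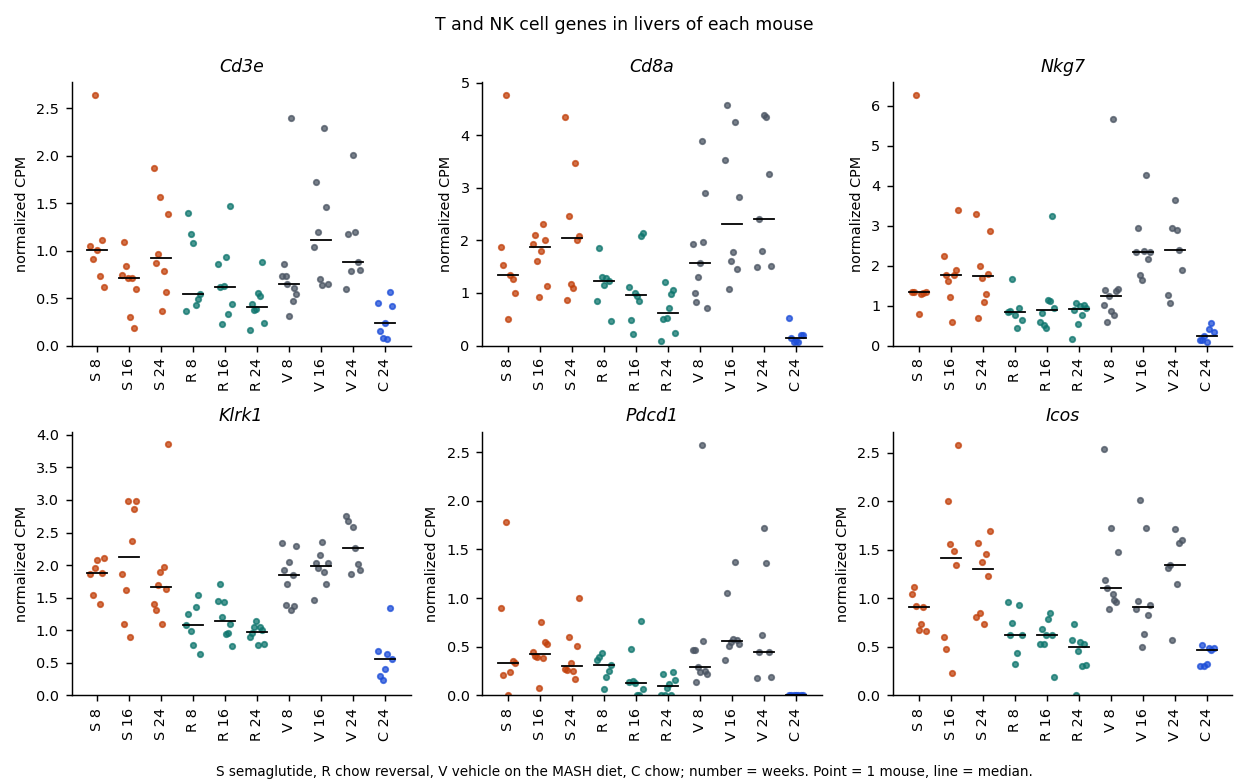
Normalized CPM of T and NK genes in each of the 77 mice (points) by group (S semaglutide, R chow reversal, V vehicle, C chow, with the weeks), with the median as a line. At 24 weeks the 8 chow reversal mice had Cd8a between 0.0813 and 1.2 CPM, all below the vehicle mice.

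Promoter sequences are shown for genes that fell together after chow reversal (Cd3e, Cd8a, Nkg7 and Klrk1) and for Cd79a, a B cell gene that did not pass that test, to set start-site sequences of members side by side. They are RefSeq windows of 300 bases (250 before and 50 after the gene start, GRCm38.p6) and 24 members had one. The words searched are known as binding motifs of lymphocyte factors, were read on both strands, and do not contain one another: TGTGGT (RUNX), CAGCTG (an E-box, its own reverse complement), CAGGAAGT (ETS) and ATGCAAAT (the octamer). TGTGGT was in 16.7% of all 32544 promoters and in 10 of the 24 members, CAGCTG in 16.4% and in 5, CAGGAAGT in 3.34% and in 5, and ATGCAAAT in 1.75% and in 0. Capitals mark the match, counted from the gene start: ETS at -18 in Cd3e (chr9:45009562-45009861, - strand), the E-box at -2 in Cd8a (chr6:71373177-71373476, + strand), RUNX at -83 in Nkg7 (chr7:43436888-43437187, + strand), RUNX at -129 in Klrk1 (chr6:129623815-129624114, - strand) and ETS at -56 in Cd79a (chr7:24897247-24897546, + strand). A match describes letters and not a bound site.
Cd3e: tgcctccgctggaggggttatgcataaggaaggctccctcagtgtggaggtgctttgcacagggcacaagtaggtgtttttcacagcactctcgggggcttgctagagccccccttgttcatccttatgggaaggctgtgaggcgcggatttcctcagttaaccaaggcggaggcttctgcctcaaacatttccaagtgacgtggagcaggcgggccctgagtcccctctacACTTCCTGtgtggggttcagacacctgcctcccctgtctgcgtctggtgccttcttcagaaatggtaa
Cd8a: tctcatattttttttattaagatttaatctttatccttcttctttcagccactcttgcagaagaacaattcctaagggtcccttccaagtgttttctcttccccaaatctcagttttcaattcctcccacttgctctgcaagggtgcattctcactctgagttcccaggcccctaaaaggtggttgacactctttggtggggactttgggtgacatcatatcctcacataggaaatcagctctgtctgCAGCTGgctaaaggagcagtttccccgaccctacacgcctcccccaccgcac
Nkg7: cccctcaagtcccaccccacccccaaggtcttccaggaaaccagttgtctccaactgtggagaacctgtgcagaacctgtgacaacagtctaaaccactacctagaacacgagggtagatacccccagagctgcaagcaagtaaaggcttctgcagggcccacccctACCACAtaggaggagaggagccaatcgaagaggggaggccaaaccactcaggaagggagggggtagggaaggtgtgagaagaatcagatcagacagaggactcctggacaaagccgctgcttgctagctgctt
Klrk1: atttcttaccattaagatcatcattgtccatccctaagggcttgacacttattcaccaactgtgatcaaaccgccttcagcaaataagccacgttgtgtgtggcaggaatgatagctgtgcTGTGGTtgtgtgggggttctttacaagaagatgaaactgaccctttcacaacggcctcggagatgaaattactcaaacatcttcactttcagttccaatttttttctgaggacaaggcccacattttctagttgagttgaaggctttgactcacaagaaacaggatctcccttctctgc
Cd79a: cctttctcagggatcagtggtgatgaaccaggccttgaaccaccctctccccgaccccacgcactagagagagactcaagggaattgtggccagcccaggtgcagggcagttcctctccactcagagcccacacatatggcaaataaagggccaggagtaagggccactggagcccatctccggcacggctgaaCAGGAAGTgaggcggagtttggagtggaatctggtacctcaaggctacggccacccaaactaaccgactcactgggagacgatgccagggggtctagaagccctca

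Among the 8 adhesion, co-stimulation and proximal signalling genes, Zap70 was higher with both interventions, and Cd2, Cd6, Lck and Thy1 were lower with chow reversal, over vehicle at 24 weeks. The shares over all genes were 10.8% higher and 13.6% lower with semaglutide, and 17% and 19.1% with chow reversal. Lck, the kinase that starts receptor signalling, had 1.59 to 3.17 CPM (median 2.31) after 24 weeks of semaglutide, 0.457 to 2.47 CPM (median 1.09) after chow reversal, 1.2 to 4.49 CPM (median 2.77) with vehicle and 0.348 to 0.827 CPM (median 0.672) in chow-fed mice. The chow reversal and vehicle ranges overlapped, with chow reversal lower by median. Lck was at -0.15 (95% interval -0.75 to 0.44) over vehicle with semaglutide at 24 weeks, and was lower with chow reversal at 16 weeks (log2 fold change -0.98, SE 0.30, adjusted p = 0.00782) and at 24 weeks (log2 fold change -1.17, SE 0.31, adjusted p = 0.00182). Set against chow reversal at 24 weeks, Lck was higher with semaglutide (log2 1.02, adjusted p = 0.0162), a call lost with only the compared groups fitted (adjusted p = 0.0548). Thy1, a surface protein of mouse T cells that fibroblasts can also carry, had 1.59 to 2.68 CPM (median 2.26) after 24 weeks of semaglutide, 0.569 to 3.07 CPM (median 1.08) after chow reversal, 0.777 to 4.08 CPM (median 2.49) with vehicle and 0.477 to 1.54 CPM (median 1.04) in chow-fed mice. Its log2 fold change was -0.16 (95% interval -0.74 to 0.41) with semaglutide and -0.84 with chow reversal (adjusted p = 0.021). Cd2, an adhesion receptor, and Cd6, a receptor that tunes activation, were at -0.20 and -0.38 with semaglutide (adjusted p = 0.71 and 0.592) and at -1.05 and -1.49 with chow reversal (adjusted p = 0.0197 and 0.017). The remaining Cd5, Cd28 and Lat did not pass over vehicle at 24 weeks, with log2 values of -0.31, -0.82 and -0.10 for semaglutide and -1.02, -0.78 and -0.83 for chow reversal. The chow reversal call at 24 weeks was lost for Cd2 without chow reversal replicate 4 or vehicle replicate 3 (adjusted p 0.0556 to 0.0639), for Cd6 without vehicle replicate 4 (adjusted p = 0.0751) and for Thy1 without chow reversal replicate 1 or 8 or vehicle replicate 6 (adjusted p 0.0528 to 0.0846). It was also lost with only the compared groups fitted (adjusted p = 0.0506) for Cd2 and with only the compared groups fitted (adjusted p = 0.102) for Thy1.

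Zap70, the kinase that binds the phosphorylated zeta chain, was, of the 27 tested T and NK members, the one that was higher with either intervention than with vehicle at 24 weeks. Over all 77 libraries it averaged 4.70 CPM per kb, against 0.649 for Lck and 0.199 for Cd3e. Zap70 had 10.1 to 28.4 CPM (median 17.4) after 24 weeks of semaglutide, 10.9 to 21.8 CPM (median 16.1) after chow reversal, 6.22 to 12.8 CPM (median 8.60) with vehicle and 12.1 to 24.6 CPM (median 15.3) in chow-fed mice. In both intervention groups 6 of the 8 mice were above every vehicle mouse, and in vehicle 6 of 7 mice were below every chow-fed mouse. It was higher with semaglutide than with vehicle (fold 2.12, log2 fold change 1.09, SE 0.23, adjusted p = 0.000319), higher with chow reversal (log2 fold change 0.82, SE 0.23, adjusted p = 0.00327), and lower in vehicle than in chow-fed mice (log2 fold change -0.88, SE 0.24, adjusted p = 0.00133). Semaglutide and chow reversal did not pass against each other, at 0.26 (95% interval -0.17 to 0.70).

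At 8 weeks Zap70 had 8.17 to 14.8 CPM (median 11.5) with semaglutide, 11.8 to 24.8 CPM (median 15.1) after chow reversal and 6.57 to 12.1 CPM (median 9.65) with vehicle. Chow reversal was higher than vehicle at that time (log2 fold change 0.79, SE 0.22, adjusted p = 0.00409), and semaglutide was at 0.23 (95% interval -0.21 to 0.67). At 16 weeks Zap70 had 8.18 to 41.7 CPM (median 12.8) with semaglutide, 10.8 to 21.9 CPM (median 14.8) after chow reversal and 6.23 to 19.9 CPM (median 10.9) with vehicle, and semaglutide replicate 4 (41.7 CPM) and replicate 8 (29.2 CPM) stood above the rest. The 16-week call with semaglutide (log2 fold change 0.67, SE 0.22, adjusted p = 0.0348) was lost without semaglutide replicate 4, 7 or 8 or vehicle replicate 1, 4, 6 or 7 (adjusted p 0.0521 to 0.233). It was also lost with no filter (adjusted p = 0.062), without the second-series libraries (adjusted p = 0.186), with a block on sets of library numbers (adjusted p = 0.242), with library totals as the scaling (adjusted p = 0.0736) and with only the compared groups fitted (adjusted p = 0.224). The block grouped libraries whose numbers follow each other in the repeating order of groups.

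Of the 8 cytotoxic granule and NK receptor genes, 7 were tested. At 24 weeks 0 of the 7 passed with semaglutide over vehicle (1 of the 27 T and NK genes had an unadjusted p under 0.05, which was Zap70), and Gzmb, Gzmk, Nkg7 and Klrk1 were lower with chow reversal. In all genes tested, 10.8% were higher and 13.6% lower with semaglutide, and 17% and 19.1% with chow reversal. Nkg7, a protein of cytotoxic granule membranes, had 0.699 to 3.28 CPM (median 1.75) after 24 weeks of semaglutide, 0.163 to 1.05 CPM (median 0.909) after chow reversal, 1.06 to 3.63 CPM (median 2.39) with vehicle and 0.0795 to 0.569 CPM (median 0.227) in chow-fed mice. All 8 chow reversal mice were below every vehicle mouse, and 7 of the 8 semaglutide mice were above every chow reversal mouse. Its log2 fold change over vehicle was -0.31 (95% interval -1.08 to 0.46) with semaglutide and -1.52 (95% interval -2.33 to -0.71) with chow reversal (adjusted p = 0.00208).

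Klrk1, which encodes the activating receptor NKG2D of NK and CD8 T cells, passed the test for chow reversal at every time. Klrk1 had 1.10 to 3.86 CPM (median 1.66) after 24 weeks of semaglutide, 0.774 to 1.14 CPM (median 0.975) after chow reversal, 1.86 to 2.75 CPM (median 2.26) with vehicle and 0.227 to 1.34 CPM (median 0.557) in chow-fed mice. All 8 chow reversal mice were below every vehicle mouse, and semaglutide replicate 8, a second-series library, held the highest value, 3.86 CPM. The 24-week log2 fold change over vehicle was -0.30 (95% interval -0.73 to 0.14) with semaglutide and -1.26 (95% interval -1.71 to -0.80) with chow reversal (adjusted p = 7.4e-06). At 8 weeks Klrk1 had 1.40 to 2.12 CPM (median 1.87) with semaglutide, 0.626 to 1.54 CPM (median 1.08) after chow reversal and 1.31 to 2.34 CPM (median 1.85) with vehicle, and at 16 weeks it had 0.900 to 2.99 CPM (median 2.12) with semaglutide, 0.755 to 1.72 CPM (median 1.15) after chow reversal and 1.46 to 2.36 CPM (median 1.99) with vehicle. Chow reversal was lower than vehicle at 8 weeks (log2 -0.71, adjusted p = 0.0118) and at 16 weeks (log2 -0.71, adjusted p = 0.00963). Semaglutide was higher than chow reversal at 8, 16 and 24 weeks (log2 0.75, 0.81 and 0.96, adjusted p = 0.0431, 0.00982 and 0.00211). The 8-week call was lost without semaglutide replicate 1, 3, 4, 6 or 7 or chow reversal replicate 1, 2, 3, 4 or 7 (adjusted p 0.0602 to 0.113) and also with no filter (adjusted p = 0.0996). The 16-week call was lost without the second-series libraries (adjusted p = 0.0778), with a block on sets of library numbers (adjusted p = 0.151) and with only the compared groups fitted (adjusted p = 0.085).

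Gzmb, the granzyme B protease, had 0.0873 to 2.55 CPM (median 1.02) after 24 weeks of semaglutide, 0.0730 to 0.530 CPM (median 0.320) after chow reversal, 0.424 to 1.67 CPM (median 1.07) with vehicle and 0 to 0.902 CPM (median 0.239) in chow-fed mice. Semaglutide values spanned the vehicle range and beyond, and chow reversal values reached into its lowest part. Gzmb was lower with chow reversal than with vehicle (log2 fold change -1.69, SE 0.48, adjusted p = 0.00353) and higher with semaglutide than with chow reversal (log2 fold change 1.73, SE 0.47, adjusted p = 0.00825). Gzmk, a granzyme of memory and effector CD8 T cells, was at -0.22 (95% interval -1.33 to 0.89) over vehicle with semaglutide and at -2.34 with chow reversal (adjusted p = 0.00376). It had 70 counts over 8 semaglutide mice, 15 over 8 chow reversal mice, 97 over 7 vehicle mice and 2 over the 7 chow-fed mice. The ratios to chow were 30.6 with semaglutide (95% counting interval 8.15 to 257), 6.64 with chow reversal (1.54 to 59.8) and 36.4 with vehicle (9.81 to 305). These intervals cover counting error only. Gzma, Prf1 (perforin) and Klrd1 (the CD94 chain of NK receptors) did not pass over vehicle at 24 weeks, with log2 values of 0.57, 0.27 and 0.032 for semaglutide and -0.35, -0.94 and -0.49 for chow reversal. Prf1 was higher with semaglutide than with chow reversal (log2 fold change 1.21, SE 0.43, adjusted p = 0.0422), a call lost without semaglutide replicate 1, 2, 3, 4 or 8 or chow reversal replicate 1, 3, 4, 5 or 8 (adjusted p 0.0511 to 0.0967), and also lost with no filter (adjusted p = 0.0938), without the second-series libraries (adjusted p = 0.0534) and with a block on sets of library numbers (adjusted p = 0.056). In that comparison the call of Nkg7 (log2 1.21) was lost without semaglutide replicate 1 or 8 or chow reversal replicate 1 or 4 (adjusted p 0.0552 to 0.0762) and also with no filter (adjusted p = 0.0605) and without the second-series libraries (adjusted p = 0.0549). That of Gzmk (log2 2.12) was lost without semaglutide replicate 8 (adjusted p = 0.0771) and also without the second-series libraries (adjusted p = 0.0765).

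Ncr1, which encodes the NK receptor NKp46, was under the filter, with 21 counts over the 8 semaglutide mice, 8 over the 8 chow reversal mice, 19 over the 7 vehicle mice and 10 over the 7 chow-fed mice at 24 weeks. Fitted without a filter, its log2 fold change over vehicle was 0.41 (adjusted p = 0.832) with semaglutide and -0.89 (adjusted p = 0.477) with chow reversal. A difference in this defining NK gene was not detectable at this depth. Of 24 further NK, innate lymphoid and effector genes, 12 were tested, with 0 higher and 1 lower with semaglutide and 2 higher and 6 lower with chow reversal at 24 weeks. Among all genes tested, 10.8% were higher and 13.6% lower with semaglutide, and 17% and 19.1% with chow reversal. Ccl5, a chemokine that effector T and NK cells release, was at log2 -0.98 (SE 0.38, adjusted p = 0.0505) with semaglutide and -2.50 (SE 0.41, adjusted p = 9.1e-07) with chow reversal, and S1pr5, a receptor for NK cell exit from tissue, at 0.41 (SE 0.17, adjusted p = 0.0714) with semaglutide and 0.44 (SE 0.17, adjusted p = 0.0389) with chow reversal.

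Of the 6 checkpoint and regulatory T cell genes, 3 were tested. At 24 weeks 0 of the 3 passed with semaglutide over vehicle, and Pdcd1 and Icos, but not Tox, were lower with chow reversal. For all genes tested the shares were 10.8% higher and 13.6% lower with semaglutide, and 17% and 19.1% with chow reversal. Pdcd1, which encodes the inhibitory receptor PD-1, had 0.168 to 1.00 CPM (median 0.297) after 24 weeks of semaglutide, 0 to 0.235 CPM (median 0.0934) after chow reversal, 0.179 to 1.72 CPM (median 0.447) with vehicle and 0 CPM in all 7 chow-fed mice. In counts this was 49 over 8 semaglutide mice, 12 over 8 chow reversal mice, 101 over 7 vehicle mice and 0 over 7 chow-fed mice. Set against a floor of 3 counts over the chow group, Pdcd1 was at least 14.3-fold higher with semaglutide, at least 3.54-fold higher with chow reversal and at least 25.3-fold higher with vehicle. In 6 of the 8 chow reversal mice Pdcd1 was lower than in any vehicle mouse. Its log2 fold change over vehicle was -0.75 (95% interval -1.88 to 0.39) with semaglutide, an interval that includes a halving and no change, and -2.7 (95% interval -4.06 to -1.34) with chow reversal (adjusted p = 0.00109).

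Icos, the inducible co-stimulator of activated T cells, had 0.732 to 1.70 CPM (median 1.30) after 24 weeks of semaglutide, 0 to 0.730 CPM (median 0.493) after chow reversal, 0.565 to 1.72 CPM (median 1.34) with vehicle and 0.301 to 0.522 CPM (median 0.465) in chow-fed mice. All 8 semaglutide mice were above every chow reversal mouse. Icos was at -0.12 (95% interval -0.74 to 0.50) over vehicle with semaglutide at 24 weeks, and was lower with chow reversal at 8 weeks (log2 fold change -1.0, SE 0.33, adjusted p = 0.014) and at 24 weeks (log2 fold change -1.59, SE 0.34, adjusted p = 0.000109). At 16 weeks its chow reversal call (log2 -0.81, adjusted p = 0.0458) was lost without chow reversal replicate 1, 2, 3, 4, 7 or 8 or vehicle replicate 3 or 6 (adjusted p 0.0518 to 0.149) and also with no filter (adjusted p = 0.109). That of Pdcd1 at 16 weeks (log2 -1.59, adjusted p = 0.0341) was lost without chow reversal replicate 1, 3, 4, 5, 6 or 8 or vehicle replicate 2 or 6 (adjusted p 0.0553 to 0.0998) and also with no filter (adjusted p = 0.0683). Semaglutide over chow reversal called Icos at 16 weeks (log2 1.10) and at 24 weeks (log2 1.47), and Pdcd1 at 24 weeks (log2 1.96). In that comparison the 16-week call of Icos was lost without semaglutide replicate 8 (adjusted p = 0.0812) and also without the second-series libraries (adjusted p = 0.136), with a block on sets of library numbers (adjusted p = 0.104) and with only the compared groups fitted (adjusted p = 0.116). The call of Pdcd1 was lost without semaglutide replicate 2, 3, 4, 7 or 8 or chow reversal replicate 1, 3, 4, 5, 6 or 8 (adjusted p 0.0523 to 0.108) and also with no filter (adjusted p = 0.0816), without the second-series libraries (adjusted p = 0.108) and with a block on sets of library numbers (adjusted p = 0.0615).

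Tox, a nuclear factor of exhausted T cells that other tissues also use, had 3.53 to 8.88 CPM (median 5.61) after 24 weeks of semaglutide, 1.71 to 9.41 CPM (median 4.74) after chow reversal, 3.45 to 7.07 CPM (median 4.99) with vehicle and 2.93 to 10.3 CPM (median 4.65) in chow-fed mice. The groups overlapped throughout, the chow-fed mice included. Its log2 fold change at 24 weeks was 0.20 (95% interval -0.27 to 0.67) with semaglutide and 0.0022 (95% interval -0.47 to 0.48) with chow reversal, and 0.026 (95% interval -0.46 to 0.51) in vehicle over chow-fed mice. Tox stood at 0.683 CPM per kb in vehicle mice at 24 weeks, against 0.367 for Pdcd1. Ctla4, Foxp3 and Tigit were under the filter. At 24 weeks Foxp3, the factor of regulatory T cells, had 16 counts over 8 semaglutide mice, 12 over 8 chow reversal mice, 28 over 7 vehicle mice and 5 over 7 chow-fed mice, and part of its exons overlaps other genes. Ctla4, an inhibitory receptor, had 4 counts with semaglutide, 4 after chow reversal, 11 with vehicle and 2 in chow-fed mice. Tigit, another inhibitory receptor, had 33 with semaglutide, 15 after chow reversal, 58 with vehicle and 2 in chow-fed mice. Its ratios to chow were 14.4 with semaglutide (95% counting interval 3.68 to 124), 6.64 with chow reversal (1.54 to 59.8) and 21.8 with vehicle (5.76 to 184). Without a filter Tigit was at log2 -0.58 (adjusted p = 0.62) with semaglutide and -1.65 (adjusted p = 0.0671) with chow reversal over vehicle at 24 weeks, and at -1.96 (adjusted p = 0.0258) with chow reversal at 16 weeks.

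Of 14 further exhaustion and regulatory genes, 9 were tested, with 2 lower with semaglutide and 4 lower with chow reversal at 24 weeks and 0 higher in either. Havcr2, which encodes TIM-3 and is also carried by macrophages, was at log2 -0.93 (SE 0.26, adjusted p = 0.00601) with semaglutide and -1.56 (SE 0.27, adjusted p = 2.91e-06) with chow reversal. Lag3, a checkpoint receptor, was at -0.23 (SE 0.31, adjusted p = 0.623) with semaglutide and -0.58 (SE 0.32, adjusted p = 0.148) with chow reversal. Of 24 further T cell genes, 13 were tested, with 0 higher and 2 lower with semaglutide and 1 higher and 7 lower with chow reversal. Beside both lists, 10.8% of all genes were higher and 13.6% lower with semaglutide, and 17% and 19.1% with chow reversal. Themis, a T cell signalling protein, was at -2.25 (SE 0.33, adjusted p = 6.6e-07) with semaglutide and -1.98 (SE 0.33, adjusted p = 1.33e-06) with chow reversal. No tested T or NK member fell as far with semaglutide, where their lowest log2 fold change was -0.82. Which liver cells gave the Themis reads was not tested. Cd27, a co-stimulatory receptor, was at -0.83 (SE 0.38, adjusted p = 0.101) with semaglutide and -1.27 (SE 0.39, adjusted p = 0.00778) with chow reversal.

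A result that misses the threshold does not show that a gene did not change, so the intervals were read. For semaglutide over vehicle at 24 weeks, the 95% intervals of 16 of the 27 tested T and NK genes stopped short of a halving and those of 24 stopped short of a doubling, with estimates between -0.82 and 1.09 on the log2 scale. For chow reversal over vehicle, 3 of the 27 stopped short of a halving. The plot of both sets of intervals shows the members by class. The median SE was 0.38 for semaglutide and 0.40 for chow reversal.

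**Figure D3:**
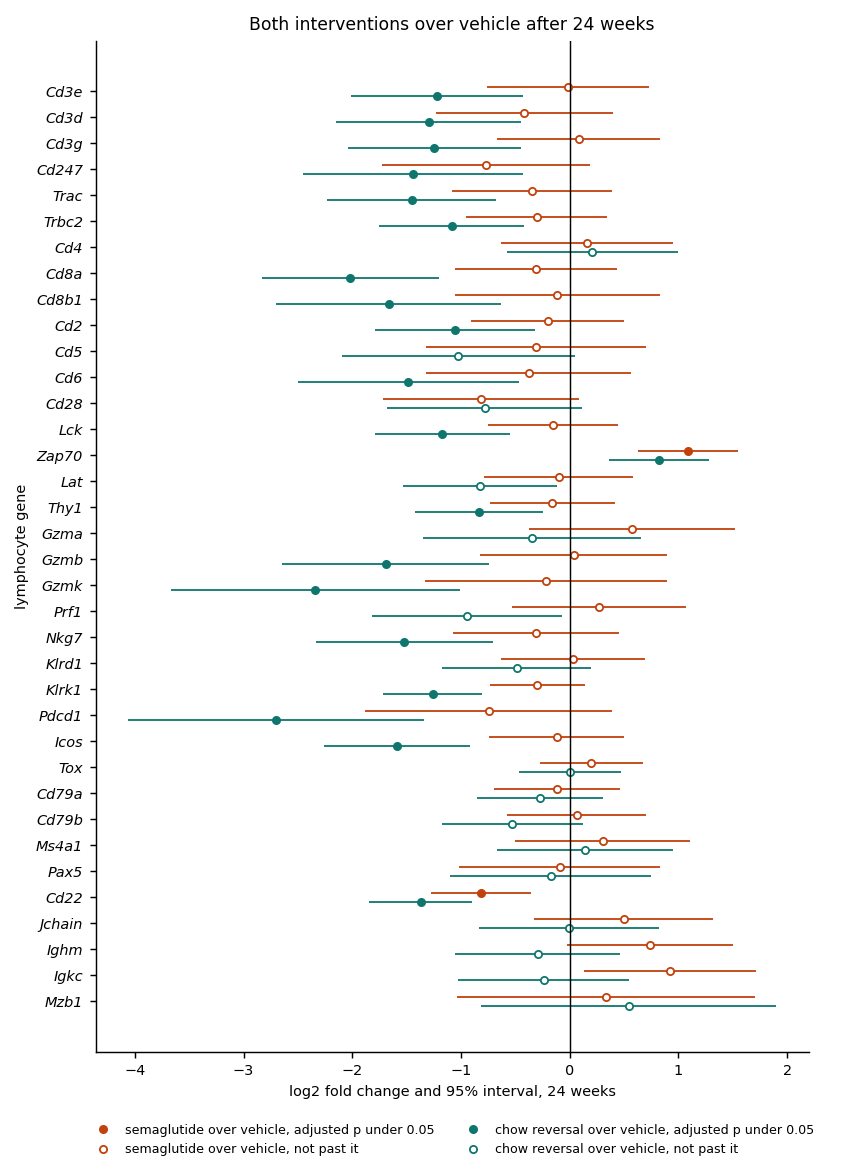
Log2 fold change with its 95% interval for each tested lymphocyte gene at 24 weeks, for semaglutide over vehicle and chow reversal over vehicle. The T and NK intervals of semaglutide lie mostly across 0, and 24 of the 27 for chow reversal reach to a halving or below.

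Of the 5 B cell genes, 0 were higher and Cd22 alone was lower with semaglutide and with chow reversal at 24 weeks. Over all genes tested, 10.8% were higher and 13.6% lower with semaglutide, and 17% and 19.1% with chow reversal. Cd79a and Cd79b, which hold the B cell receptor on the surface, had medians of 1.43 and 1.79 CPM with semaglutide, 1.38 and 1.52 after chow reversal, 1.65 and 2.17 with vehicle and 1.43 and 1.13 in chow-fed mice. Cd79a had 0.772 to 3.23 CPM (median 1.43) after 24 weeks of semaglutide, 0.550 to 2.56 CPM (median 1.38) after chow reversal, 0.956 to 2.99 CPM (median 1.65) with vehicle and 0.453 to 2.74 CPM (median 1.43) in chow-fed mice. Cd79b had 1.40 to 5.85 CPM (median 1.79) after 24 weeks of semaglutide, 0.707 to 2.7 CPM (median 1.52) after chow reversal, 1.08 to 5.14 CPM (median 2.17) with vehicle and 0.522 to 2.25 CPM (median 1.13) in chow-fed mice. All 4 groups overlapped for both genes. The log2 fold changes of Cd79a were -0.12 (95% interval -0.70 to 0.46) with semaglutide and -0.27 (95% interval -0.86 to 0.31) with chow reversal over vehicle, and those of Cd79b 0.063 (95% interval -0.57 to 0.70) with semaglutide and -0.53 (95% interval -1.17 to 0.12) with chow reversal. Ms4a1, which encodes CD20, and Pax5, the factor of B cell identity, were at 0.30 and -0.091 with semaglutide and 0.14 and -0.18 with chow reversal, without passing. At 8 weeks Ms4a1 was the single member with an unadjusted p under 0.05 for semaglutide over vehicle, at -0.95 (95% interval -1.79 to -0.11) and an adjusted p of 0.175.

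Cd22, a sialic acid-binding inhibitory receptor of B cells, was lower over vehicle with both interventions at 16 and 24 weeks, calls that none of the other B cell members had. It had 2.56 to 3.55 CPM (median 3.17) after 24 weeks of semaglutide, 0.314 to 4.31 CPM (median 1.73) after chow reversal, 4.40 to 6.27 CPM (median 5.54) with vehicle and 0.526 to 2.32 CPM (median 1.11) in chow-fed mice. All 8 semaglutide mice and all 8 chow reversal mice were below every vehicle mouse, and all 7 vehicle mice and all 8 semaglutide mice were above every chow-fed mouse. Cd22 was lower than with vehicle with semaglutide (fold 0.567, log2 fold change -0.82, SE 0.23, adjusted p = 0.00616) and with chow reversal (fold 0.387, log2 fold change -1.37, SE 0.24, adjusted p = 2.52e-06). At 16 weeks it had 1.71 to 4.11 CPM (median 2.57) with semaglutide, 1.44 to 4.52 CPM (median 2.34) after chow reversal and 3.76 to 8.28 CPM (median 4.24) with vehicle, and it was lower than with vehicle with semaglutide (log2 -0.81, adjusted p = 0.0125) and with chow reversal (log2 -0.94, adjusted p = 0.000817). The 16-week semaglutide call was lost without vehicle replicate 6 (adjusted p = 0.0709), the highest of that group. At 8 weeks Cd22 had 2.42 to 3.80 CPM (median 3.15) with semaglutide, 1.48 to 3.14 CPM (median 2.27) after chow reversal and 2.67 to 5.90 CPM (median 3.77) with vehicle, and chow reversal was lower (log2 fold change -0.82, SE 0.23, adjusted p = 0.00491).

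Of the Cd22 exon bases, 479 lie opposite Gm29439, whose reads cannot be told apart from its own unless strand was counted. Cd68, a lysosomal macrophage marker, was at log2 -1.04 (SE 0.24, adjusted p = 0.000713) with semaglutide and -2.04 (SE 0.24, adjusted p = 2.21e-10) with chow reversal over vehicle at 24 weeks. The part of macrophages in the Cd22 level was not tested. Of 20 further B cell genes, 16 were tested, with 0 higher and 4 lower with semaglutide and 0 higher and 6 lower with chow reversal at 24 weeks. The shares over all genes were 10.8% higher and 13.6% lower with semaglutide, and 17% and 19.1% with chow reversal. Cd72, an inhibitory receptor of B cells that some macrophages also carry, was at -1.10 (SE 0.25, adjusted p = 0.000778) with semaglutide and -1.83 (SE 0.26, adjusted p = 2.63e-08) with chow reversal. Cr2, the complement receptor of mature B cells, was at -1.42 (SE 0.48, adjusted p = 0.0236) with semaglutide and -1.51 (SE 0.49, adjusted p = 0.0108) with chow reversal.

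**Figure D4:**
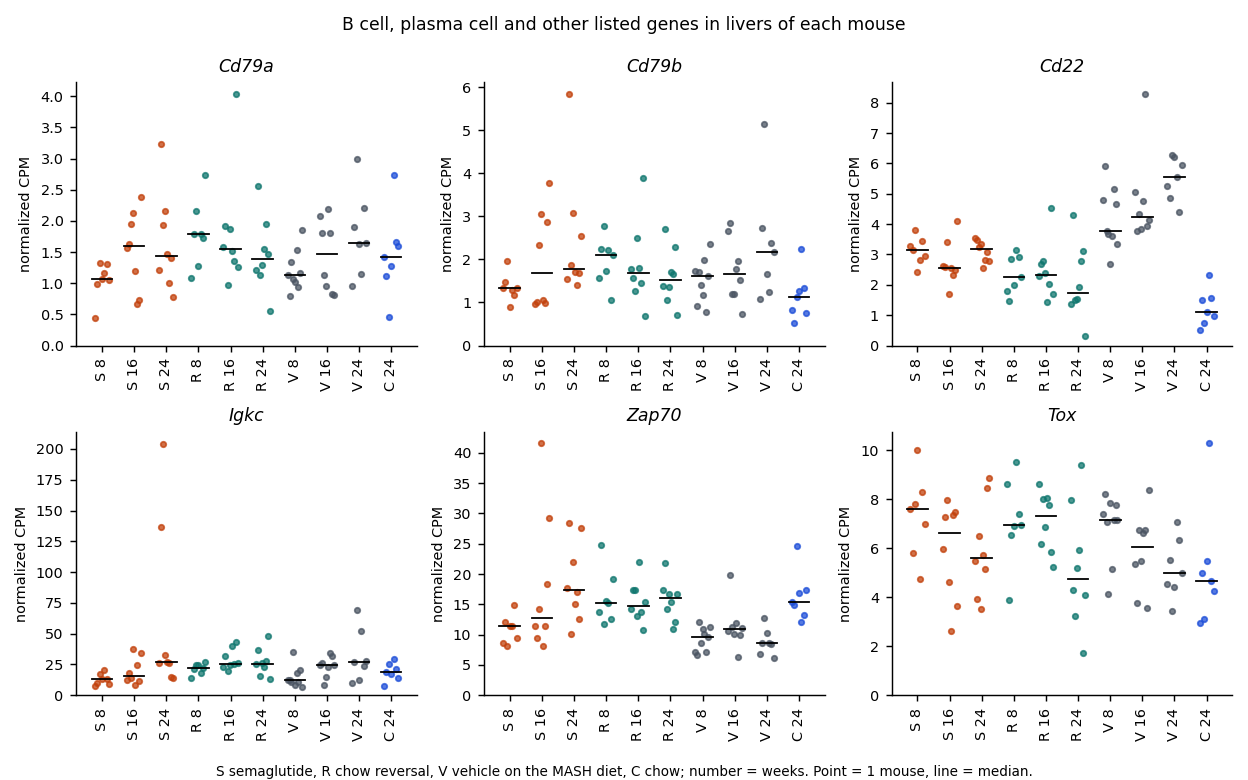
Normalized CPM of B cell, plasma cell and other members in each of the 77 mice (points) by group, with the median as a line. Cd22 at 24 weeks lies between 2.56 and 3.55 CPM in semaglutide mice, below all vehicle mice, and the highest Igkc value is that of semaglutide replicate 3 at 24 weeks.

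Igkc and Ighm were the highest of the members per length, with 59.8 CPM per kb for Igkc, the kappa light chain constant region, and 27.4 for Ighm, the IgM heavy chain constant region, in vehicle mice at 24 weeks. Igkc had 14.2 to 204 CPM (median 26.9) after 24 weeks of semaglutide, 13 to 48.4 CPM (median 25.5) after chow reversal, 9.86 to 69.3 CPM (median 26.6) with vehicle and 7.22 to 29.4 CPM (median 19.2) in chow-fed mice. Ighm had 16.1 to 363 CPM (median 42.3) after 24 weeks of semaglutide, 21.7 to 53.2 CPM (median 45.5) after chow reversal, 26.7 to 105 CPM (median 37.2) with vehicle and 12.9 to 49.9 CPM (median 29.2) in chow-fed mice. Semaglutide replicate 3 held the highest value of both, 204 CPM of Igkc and 363 CPM of Ighm, and replicate 2 the next, 137 and 122 CPM. The group medians lay between 19.2 and 26.9 CPM for Igkc and between 29.2 and 45.5 CPM for Ighm. Of the 4 genes, 0 passed over vehicle with either intervention at 24 weeks, with unadjusted p under 0.05 for Igkc with semaglutide. All genes tested had shares of 10.8% higher and 13.6% lower with semaglutide, and 17% and 19.1% with chow reversal. Igkc was at 0.92 (95% interval 0.13 to 1.71) with semaglutide (adjusted p = 0.079) and -0.24 (95% interval -1.02 to 0.54) with chow reversal. Igkc did pass with semaglutide without semaglutide replicate 7 or 8 or vehicle replicate 3 (adjusted p 0.0191 to 0.0396), and without the second-series libraries (log2 fold change 1.08, adjusted p = 0.0343). Without semaglutide replicate 3, the Igkc value was log2 0.31 (adjusted p = 0.553) and the Ighm value log2 -0.15 (adjusted p = 0.767).

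Against chow reversal at 24 weeks, Ighm (log2 fold change 1.03, SE 0.37, adjusted p = 0.0446) and Igkc (log2 fold change 1.16, SE 0.38, adjusted p = 0.0289) were higher with semaglutide. The call of Ighm was lost without semaglutide replicate 2 or 3 or chow reversal replicate 1, 3, 4, 5, 7 or 8 (adjusted p 0.05 to 0.778) and also with no filter (adjusted p = 0.0842), with a block on sets of library numbers (adjusted p = 0.087) and with only the compared groups fitted (adjusted p = 0.225). That of Igkc was lost without semaglutide replicate 2 or 3 or chow reversal replicate 3 or 8 (adjusted p 0.0605 to 0.266) and also with no filter (adjusted p = 0.0537) and with only the compared groups fitted (adjusted p = 0.182). Without semaglutide replicate 3 alone, Ighm was at log2 0.15 (adjusted p = 0.778) and Igkc at log2 0.55 (adjusted p = 0.266). At 8 weeks the medians ran the other way, with 19.7 CPM of Ighm in semaglutide mice and 34.1 in chow reversal mice, and with 12.9 CPM of Igkc in semaglutide mice and 22.4 in chow reversal mice, without passing (log2 -0.90 and -0.75, adjusted p = 0.169 and 0.284). With only the compared groups fitted at 8 weeks, both were lower with semaglutide than with chow reversal (log2 fold change -0.92, adjusted p = 0.00208 for Ighm and log2 fold change -0.77, adjusted p = 0.0145 for Igkc), as were Jchain (log2 fold change -0.82, adjusted p = 0.0219), Cd79a (log2 fold change -0.78, adjusted p = 0.027) and Zap70 (log2 fold change -0.58, adjusted p = 0.0216). Jchain, which joins IgM and IgA units, had 1.46 to 22.4 CPM (median 2.84) after 24 weeks of semaglutide, 2.40 to 5.93 CPM (median 3.82) after chow reversal, 1.19 to 9.33 CPM (median 2.51) with vehicle and 1.99 to 4.5 CPM (median 2.80) in chow-fed mice. Its values overlapped among all groups, and its log2 fold change over vehicle was 0.50 (95% interval -0.33 to 1.32) with semaglutide and -0.0084 (95% interval -0.83 to 0.82) with chow reversal. Mzb1, a chaperone of the plasma cell endoplasmic reticulum whose exons overlap a neighbour on the same strand, was at 0.34 with semaglutide and 0.54 with chow reversal.

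Of 18 further plasma cell and isotype genes, 16 were tested, with 0 higher and 1 lower with semaglutide and 5 higher and 2 lower with chow reversal at 24 weeks. Igha, the IgA heavy chain constant region, was at log2 1.28 (SE 0.54, adjusted p = 0.0704) with semaglutide and 2.24 (SE 0.54, adjusted p = 0.000578) with chow reversal. Prdm1, which encodes the plasma cell factor BLIMP1 and serves other cells too, was at -0.78 (SE 0.27, adjusted p = 0.0276) with semaglutide and -1.95 (SE 0.29, adjusted p = 1.13e-07) with chow reversal. Of 21 lymphocyte attractants and survival factors, 17 were tested, with 0 higher and 4 lower with semaglutide and 3 higher and 10 lower with chow reversal. Beside these 2 lists, 10.8% of all genes were higher and 13.6% lower with semaglutide, and 17% and 19.1% with chow reversal. Cxcl16, the ligand of CXCR6 on liver T cells, was at -0.72 (SE 0.21, adjusted p = 0.00781) with semaglutide and -1.56 (SE 0.21, adjusted p = 1.16e-08) with chow reversal, and Cxcl10, a ligand of CXCR3, at -1.27 (SE 0.26, adjusted p = 0.000179) with semaglutide and -1.99 (SE 0.27, adjusted p = 6.85e-09) with chow reversal.

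Variable segments, which rearranged receptor and antibody genes carry and which none of the 40 genes includes, were counted apart from the members. Counts fell in 108 of 170 annotated T cell receptor segments and in 214 of 348 immunoglobulin segments, and each set was summed per mouse. The T cell receptor sum was 0.244 to 1.62 CPM (median 0.754) after 24 weeks of semaglutide, 0.0813 to 0.647 CPM (median 0.340) after chow reversal, 0.503 to 1.91 CPM (median 0.897) with vehicle and 0 to 0.522 CPM (median 0.310) in chow-fed mice. On the log2(CPM + 1) scale the mean differed from vehicle by -0.19 (exact permutation p = 0.343, adjusted p = 0.495) with semaglutide, with the adjustment over 13 comparisons of 2 groups, and by -0.63 (exact permutation p = 0.00124, adjusted p = 0.00808) with chow reversal. Semaglutide differed from chow reversal by 0.44 (exact permutation p = 0.0127, adjusted p = 0.0434) and from chow by 0.46 (exact permutation p = 0.0134, adjusted p = 0.0434), vehicle differed from chow by 0.65 (exact permutation p = 0.00117, adjusted p = 0.00808), and chow reversal from chow by 0.012 (exact permutation p = 0.905, adjusted p = 0.905). These sums rest on 1 to 26 counts per mouse in the intervention groups at 24 weeks, so the log2 scale with its added 1 understates the folds. Without the second-series libraries the differences of semaglutide from chow reversal and from chow were 0.37 and 0.38, with an adjusted p of 0.0828 each.

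The immunoglobulin sum was 8.03 to 110.3 CPM (median 11.4) after 24 weeks of semaglutide, 8.20 to 25.1 CPM (median 12.3) after chow reversal, 6.04 to 29.2 CPM (median 15.1) with vehicle and 3.16 to 17.3 CPM (median 8.69) in chow-fed mice. Semaglutide replicate 3 held 110.3 CPM, as it held the highest Ighm and Igkc. The immunoglobulin sum differed from vehicle by 0.26 (exact permutation p = 0.694, adjusted p = 0.82) with semaglutide and by -0.069 (exact permutation p = 0.839, adjusted p = 0.909) with chow reversal. At 16 weeks the difference between semaglutide and chow reversal was -0.65 (exact permutation p = 0.0228, adjusted p = 0.295), the smallest unadjusted p of its 13 comparisons. The plot of both sums by mouse shows the single high immunoglobulin value and the lower T cell receptor sums of chow reversal at 24 weeks.

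**Figure D5:**
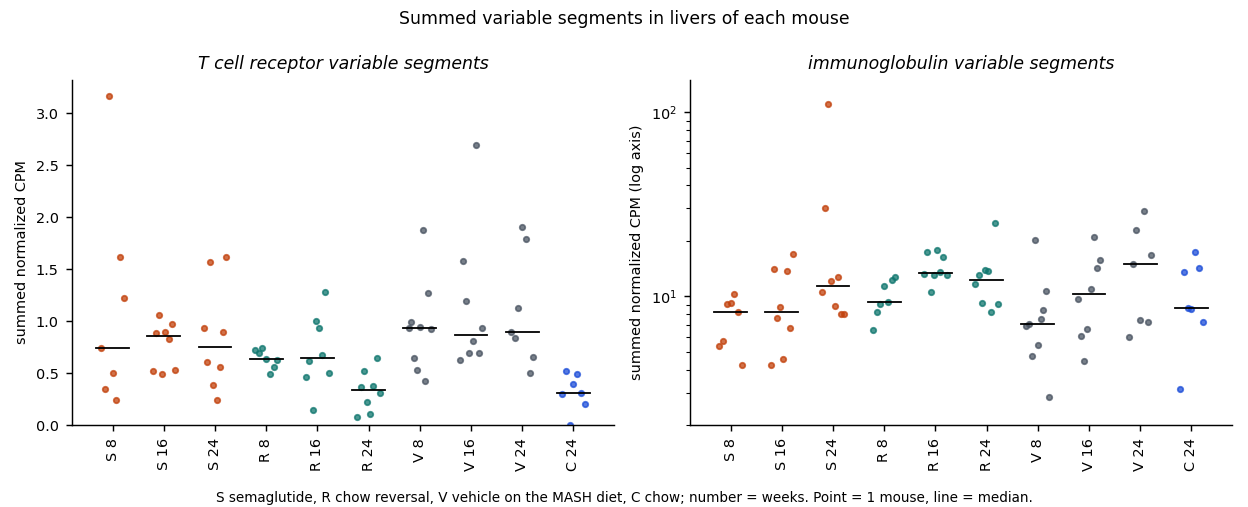
Summed normalized CPM of T cell receptor and of immunoglobulin variable segments in each of the 77 mice (points) by group, with the median as a line. At 24 weeks the T cell receptor medians are 0.754 CPM with semaglutide, 0.340 after chow reversal, 0.897 with vehicle and 0.310 in chow-fed mice.

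Members of one complex or cell type varied together among mice of the same group to different degrees. Over 77 mice, after subtraction of group means from log2 CPM, the Pearson r of Cd8a and Cd8b1 was 0.719 (Spearman 0.676, permutation p = 1e-05 and 1e-05, adjusted p = 2.3e-05 and 2.3e-05, 0.697 without the 2 most extreme mice), with permutations within groups and adjustment over 7 pairs. It was 0.653 (Spearman 0.663, permutation p = 1e-05 and 1e-05, adjusted p = 2.3e-05 and 2.3e-05, 0.669 without the 2 most extreme mice) for the receptor partners Cd79a and Cd79b, and 0.794 (Spearman 0.760, permutation p = 1e-05 and 1e-05, adjusted p = 2.3e-05 and 2.3e-05, 0.751 without the 2 most extreme mice) for the plasma cell genes Jchain and Igkc, where 1e-05 is the smallest p that 100000 permutations give. The CD3 partners Cd3e and Cd3g had 0.449 (Spearman 0.315, permutation p = 0.00015 and 0.0081, adjusted p = 0.00026 and 0.014, 0.339 without the 2 most extreme mice). Across cell types, Cd3e with Cd79a had 0.313 (Spearman 0.314, permutation p = 0.0098 and 0.0099, adjusted p = 0.014 and 0.014, 0.294 without the 2 most extreme mice), and Cd79a with Jchain had 0.131 (Spearman 0.208, permutation p = 0.27 and 0.087, adjusted p = 0.31 and 0.1, 0.133 without the 2 most extreme mice). Gzma with Ncr1, at a few counts a library, had -0.0120 (Spearman -0.0824, permutation p = 0.93 and 0.5, adjusted p = 0.93 and 0.5, -0.0746 without the 2 most extreme mice). The 2 most extreme mice were those farthest from the median on the first-named gene, so mice extreme on the second gene may remain. All pairs share the libraries and their depth.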

How the data were processed

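Livers of 77 mice were sequenced, 1 library a mouse (NEBNext Ultra II Directional kit). The values are estimated counts per gene that the authors deposited, of which 7.55% are fractional. The submitters' processing notes name STAR 2.7.3a, Salmon 1.2.0, FastQC 0.11.9, Picard, DESeq2 and GRCm38, and the strand setting of the counting is not given in the sources used here. Directional counting would separate a gene from its antisense partner, and salmon shares reads among close copies, which can split counts between them.

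All columns were used. Of 55487 gene IDs, 55227 were named by GENCODE M21 (GRCm38) and 260 were not (0.0155% of counts), and those were kept under their IDs. Counts were rounded, filtered with filterByExpr by group (0.609 CPM), scaled by TMM and fitted over all 10 groups with edgeR 4.0.16 (quasi-likelihood test, common dispersion 0.066) in R 4.3.3, with Benjamini-Hochberg adjustment over 14904 genes and a threshold of 0.05. SE and 95% intervals are on the log2 scale. The SE was derived from the test, as the size of the log2 fold change over the square root of F. Intervals used that SE and a t quantile. A prior count of 2 was used for the log2 CPM of the pairs. Segment sums were compared on log2(CPM + 1) by exact two-sided permutation tests (scipy 1.17.1), and pairs by 100000 permutations within groups. The scripts were tested on simulated data. Alternatives were DESeq2 1.42.0, other scalings, no filter, only the compared groups, left-out libraries, a block on sets of library numbers and other pseudocounts.

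The members and lists were chosen with earlier results of these data known. Any member may be named. Values by mouse are given for up to 3 members of each class with the highest mean CPM and for the one with the smallest p when the semaglutide effects at all 3 times were tested jointly, and up to 4 genes of each related list were named by that p. Replicates were separate mice, numbered in accession order. Intervals of counts cover counting error only.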

Additional observations from a re-analysis of the deposited data

Results flagged for a closer look

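Among groups of 7 to 9 mice, 1 mouse stood far from the others of its group, by the gap to the nearest mouse over the whole range, in 39 of 210 combinations of a group with a member or a variable segment sum. The cutoff flags about 1 in 20 by chance only if values are normally distributed. Low CPM values with a long upper tail can pass it more often, and their rate was not computed. Whether the number flagged exceeds chance therefore cannot be judged. Members measured in the same mouse are not independent, so several of these combinations belong to a few mice. In semaglutide replicate 3 at 8 weeks the high values were, in CPM, Cd3e 2.65, Trac 5.64, Trbc2 5.24, Cd8a 4.78, Lck 4.60, Thy1 6.45 and Nkg7 6.27, where the other mice of the group had 0.971 to 1.33 CPM of Trac and 0.787 to 1.34 CPM of Nkg7. In vehicle replicate 6 at 8 weeks they were Cd3e 2.40, Trac 4.93, Trbc2 4.09, Lck 5.47, Nkg7 5.66 and Pdcd1 2.58, where the others had 1.30 to 1.83 CPM of Lck and 0.138 to 0.558 CPM of Pdcd1. Both mice were high for T cell and cytotoxic genes, and neither stood apart in the B or plasma cell genes looked at.

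Plasma cell and B cell genes set other mice apart. Semaglutide replicate 3 at 24 weeks had, in CPM, Jchain 22.4, Ighm 363 and the immunoglobulin variable segments 110.3, where the others had 1.46 to 6.29 CPM of Jchain and 16.1 to 122 CPM of Ighm. Vehicle replicate 4 at 8 weeks had Jchain 6.91, Ighm 70.5, Igkc 34.9 and the immunoglobulin variable segments 20.3, where the others had 10.9 to 33.7 CPM of Ighm. Chow reversal replicate 7 at 16 weeks had Nkg7 3.23, Cd79a 4.04 and Cd22 4.52, where the others had 0.973 to 1.92 CPM of Cd79a. The variable segments, which are not members, were high in the same mice as the constant regions in the semaglutide and vehicle cases.

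Among semaglutide mice the single values were, in CPM, Cd79a 0.448 in replicate 1 at 8 weeks, Thy1 3.25 in replicate 8 at 16 weeks, Cd79b 5.85 in replicate 2 at 24 weeks and Klrk1 3.86 in replicate 8 at 24 weeks. Among chow reversal mice the single values were, in CPM, Nkg7 1.67 in replicate 3 at 8 weeks and the immunoglobulin variable segments 25.1 in replicate 7 at 24 weeks. Among vehicle mice the single values were, in CPM, Zap70 19.9 in replicate 2 at 16 weeks, Cd22 8.28 and the T cell receptor variable segments 2.69 in replicate 6 at 16 weeks, Cd79b 5.14 in replicate 3 at 24 weeks and Cd3e 2.00 in replicate 4 at 24 weeks. Among chow-fed mice the single values were, in CPM, Cd8a 0.526 and Gzmb 0.902 in replicate 1 at 24 weeks, Zap70 24.6 in replicate 3 at 24 weeks, Tox 10.3 in replicate 5 at 24 weeks and Klrk1 1.34 in replicate 6 at 24 weeks. Of all these, Cd79a in semaglutide replicate 1 at 8 weeks was the one that lay below its group, and the rest lay above. Semaglutide replicate 8 at 16 weeks and replicate 8 at 24 weeks are second-series libraries.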

How the results depend on the processing

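No called member changed sign under another setting or with 1 library left out. Over members and comparisons with a call, 830 results under the other settings kept their side of the threshold, 37 gained a call and 43 lost it, and with 1 library left out, an alternative chosen after seeing the data, 1590 kept it, 42 gained it and 138 lost it. Called members that a setting did not test, because they missed its filter, are left out of these numbers. Calls that vanished in that way are therefore not among the 43. With 1 library left out, members called over vehicle with semaglutide were 0 to 0, 0 to 2 and 2 to 3 at 8, 16 and 24 weeks, and with chow reversal 4 to 5, 5 to 11 and 16 to 23. For semaglutide over chow reversal they were 0 to 1, 1 to 4 and 8 to 17. Over chow they were 25 to 29 with semaglutide, 2 to 8 with chow reversal and 26 to 28 with vehicle, and 0 for the vehicle times and the semaglutide effects over time. Semaglutide over vehicle at 16 weeks had 1 call, with 0 higher, in each of 4 settings: no filter, without the second-series libraries, with a block on sets of library numbers and with only the compared groups. Scaling to library totals gave 17 for chow reversal over vehicle at 16 weeks, 2 for semaglutide over chow reversal at 8 weeks and 8 for chow reversal over chow, and that scaling moved the median of all genes by -0.131 to -0.23 on the log2 scale for semaglutide over vehicle, by -0.253 to -0.3 for chow reversal over vehicle and by 0.191 for semaglutide over chow, 0.121 for chow reversal over chow and 0.421 for vehicle over chow. Without a filter, semaglutide over chow reversal had 0 at 8 weeks and 7 at 24 weeks. At 16 weeks it had 0 without the second-series libraries, 0 with the block and 0 with only the compared groups. With only the compared groups it had 6 at 8 weeks (Klrk1 higher, and Zap70, Cd79a, Jchain, Ighm and Igkc lower) and 5 at 24 weeks, chow reversal over vehicle at 24 weeks had 13, and over chow semaglutide had 13, chow reversal 1 and vehicle 13. In that setting 6 called members of chow reversal over vehicle at 24 weeks were not tested, as were 6 of semaglutide over chow reversal and, over chow, 15 with semaglutide, 3 with chow reversal and 14 with vehicle. The cause of the other shifts was not tested. DESeq2 called 9 for chow reversal over chow. The T cell receptor segment sum of semaglutide at 24 weeks differed by 1.10 from chow reversal and 1.18 from chow with a pseudocount of 0.1 (adjusted p = 0.0535 each), and by 0.37 and 0.38 without the second-series libraries (adjusted p = 0.0828 each). Chow reversal over vehicle at 8 weeks differed by -0.35 scaled to library totals (adjusted p = 0.0347). Gzma with Ncr1 had r = 0.0582 at a prior count of 0.5. The median log2 fold change of the members over chow was 1.64 with semaglutide, 0.67 with chow reversal and 1.89 with vehicle, also with Pdcd1 at its bound. Most tested members passed the filter through groups other than chow, which favours positive values. These medians were therefore not read further. Each mouse carried its own number, so mice were not paired across groups, and the block followed the repeating order of library numbers. With the block, the lost calls were Zap70 (semaglutide over vehicle, 16 weeks), Icos and Klrk1 (semaglutide over chow reversal, 16 weeks), Prf1, Pdcd1 and Ighm (the same, 24 weeks), Prf1 (vehicle over chow) and Cd247 and Mzb1 (semaglutide over chow). Depth left Ncr1, Ctla4, Foxp3 and Tigit under the filter.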

Other observations

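Pairs chosen after their values had been seen were read over the 77 mice with group means removed, with permutations within groups and adjustment over the 5 pairs, which does not allow for the choice. Tox and Pdcd1, both used as signs of T cell exhaustion, had a Pearson r of -0.136 (Spearman rho -0.0547, permutation p = 0.2 and 0.64, adjusted p = 0.33 and 0.83, r = -0.0675 without the 2 most extreme mice). Zap70 had -0.0188 (Spearman rho -0.0533, permutation p = 0.88 and 0.66, adjusted p = 0.88 and 0.83, r = -0.0423 without the 2 most extreme mice) with Cd3e and 0.0701 (Spearman rho -0.00139, permutation p = 0.57 and 0.99, adjusted p = 0.71 and 0.99, r = 0.0302 without the 2 most extreme mice) with Lck. Cd22 had 0.474 (Spearman rho 0.380, permutation p = 9e-05 and 0.0012, adjusted p = 0.00022 and 0.0029, r = 0.372 without the 2 most extreme mice) with Cd79a and 0.581 (Spearman rho 0.504, permutation p = 1e-05 and 2e-05, adjusted p = 5e-05 and 0.0001, r = 0.521 without the 2 most extreme mice) with Cd68. The 2 most extreme mice were again chosen on 1 gene of each pair only (Tox, Zap70 or Cd22). All pairs share the libraries and their depth, and 1e-05 is the smallest p that 100000 permutations give.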
